A study of Mus musculus with 6 samples.

Results

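The translation initiation factors and the kinases of eIF2 are described here in mouse oocytes with and without Zar1. Members were all protein-coding genes whose symbol begins with Eif and a digit from 1 to 6, with Eif4enif1, which encodes an eIF4E transporter, left out. There were 54 of them among 53700 genes counted, 21929 of those protein-coding, and 11 further genes with such a symbol were left out because they are annotated as pseudogenes or noncoding. The samples were 6 polyA RNA-seq libraries, each from 10 germinal vesicle (GV) oocytes of the C57BL/6N background, 3 from wild-type mice (Zar +/+) and 3 from Zar1 knockout mice (Zar -/-). GV oocytes rest in meiotic prophase and live on stored maternal mRNA. ZAR1 is an RNA-binding protein of oocytes, and the series is about mRNA storage in a compartment next to mitochondria. No treatment or other allele is named, and neither the age of the mice nor the deleted stretch of Zar1 is stated. The labels do not tell whether pools came from different animals, so a p-value reflects the spread from pool to pool.

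Initiation brings the ribosome to the start codon of an mRNA. eIF2 with bound GTP delivers the initiator tRNA to the small ribosomal subunit, helped by eIF1, eIF1A and the large eIF3 complex, while eIF4F, made of the cap-binding protein eIF4E, the helicase eIF4A and the scaffold eIF4G, loads the mRNA. Cells throttle the process at a pair of points: kinases that phosphorylate eIF2 turn it into an inhibitor of its own recycling factor eIF2B, and the 4E-binding proteins (4E-BPs) occupy the surface of eIF4E that eIF4G needs. In the fully grown and maturing oocyte, where transcription has ceased, such control of translation decides when stored mRNAs are used.

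Total gene counts ranged from 32126555 to 39148833 over the 6 libraries. Zar1 (ENSMUSG00000063935.4) had 12810 to 15245 counts in the wild-type libraries and 69 to 226 in the knockout libraries, so each library followed its label (108-fold lower, log2 fold change -6.75 ± 0.36 (SE), adjusted p = 1.15e-05 in edgeR). The summed level of 10 oocyte marker genes was 12477 to 13328 CPM (CPM are gene counts scaled to one library size, with TMM factors) in wild type and 13016 to 13910 CPM in knockout. A list of 13 granulosa and cumulus cell markers summed to 55.5 to 62.4 CPM and 48.4 to 63.1 CPM, most of it Cyp19a1 and with no gene at 0 throughout, and 7 markers of theca, stroma and blood to 24.3 to 26.1 CPM and 29.7 to 33.9 CPM, most of it Pecam1, with Hbb-bs at 0 in every library. Of the 10 oocyte markers 5 were higher and 2 lower at an edgeR adjusted p of 0.05. Among all 16473 genes tested 14.9% were higher and 18.5% lower. Nobox rose 2.67-fold (from 155 ± 8.16 to 414 ± 18.5 CPM), Figla 1.88-fold and Zp1, Zp2 and Zp3 1.36-, 1.49- and 1.53-fold, while Bmp15 and Dazl were 1.25- and 1.17-fold lower. In the other lists Kitl was lower in the knockout (4.02 ± 0.321 against 0.797 ± 0.472 CPM, n = 3 each) and Has2 (1.74 ± 0.354 against 4.61 ± 1.47 CPM) and Pecam1 (24.2 ± 0.611 against 30.5 ± 2.15 CPM) were higher, and the part of other cells in the results below was not tested. Each level is relative to all others in its library: a change in mRNA per oocyte that touched all genes alike would not show, and fewer oocytes could not be told apart from less RNA per oocyte. The libraries are of polyA RNA, and a part of tail length in the levels was not tested.

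Among the initiation factor genes more rose than fell in the knockout. Of 51 members with enough counts to test, 18 were higher (35.3%), against 14.9% of all 16473 genes tested, and 4 were lower (7.84%), against 18.5% of all genes tested. Together 43.1% of the members tested were called, against 33.4% of all genes. The remaining 29 did not pass an adjusted p of 0.05 in edgeR's quasi-likelihood test. In the paragraphs below, a value in parentheses with its SE is the log2 fold change of knockout against wild type, and levels per group are mean ± SD over 3 libraries. Those higher were Eif1, Eif2ak1, Eif2b3, Eif2b4, Eif2b5, Eif3b, Eif3c, Eif3h, Eif3i, Eif3k, Eif3l, Eif4e2, Eif4g1, Eif4g2, Eif4g3, Eif4h, Eif5b and Eif6, and those lower were Eif4ebp2, Eif4b, Eif4a2 and Eif3j1. Rises were modest: among the 18 the fold ranged from 1.17 for Eif3c to 2.12 for Eif2b5, and none passed a test against a 1.5-fold change. The falls of Eif4ebp2 (8.27-fold) and Eif4b (1.89-fold) did pass that test. The median log2 fold change over the 51 members was 0.15, with 35 above 0, beside 0.0075 over all genes tested. All 3 knockout libraries lay above all 3 wild-type libraries for 21 members and below for 9, where 22.2% of all genes tested lay above, 25.5% below and 47.8% on either side.

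**Figure D1:**
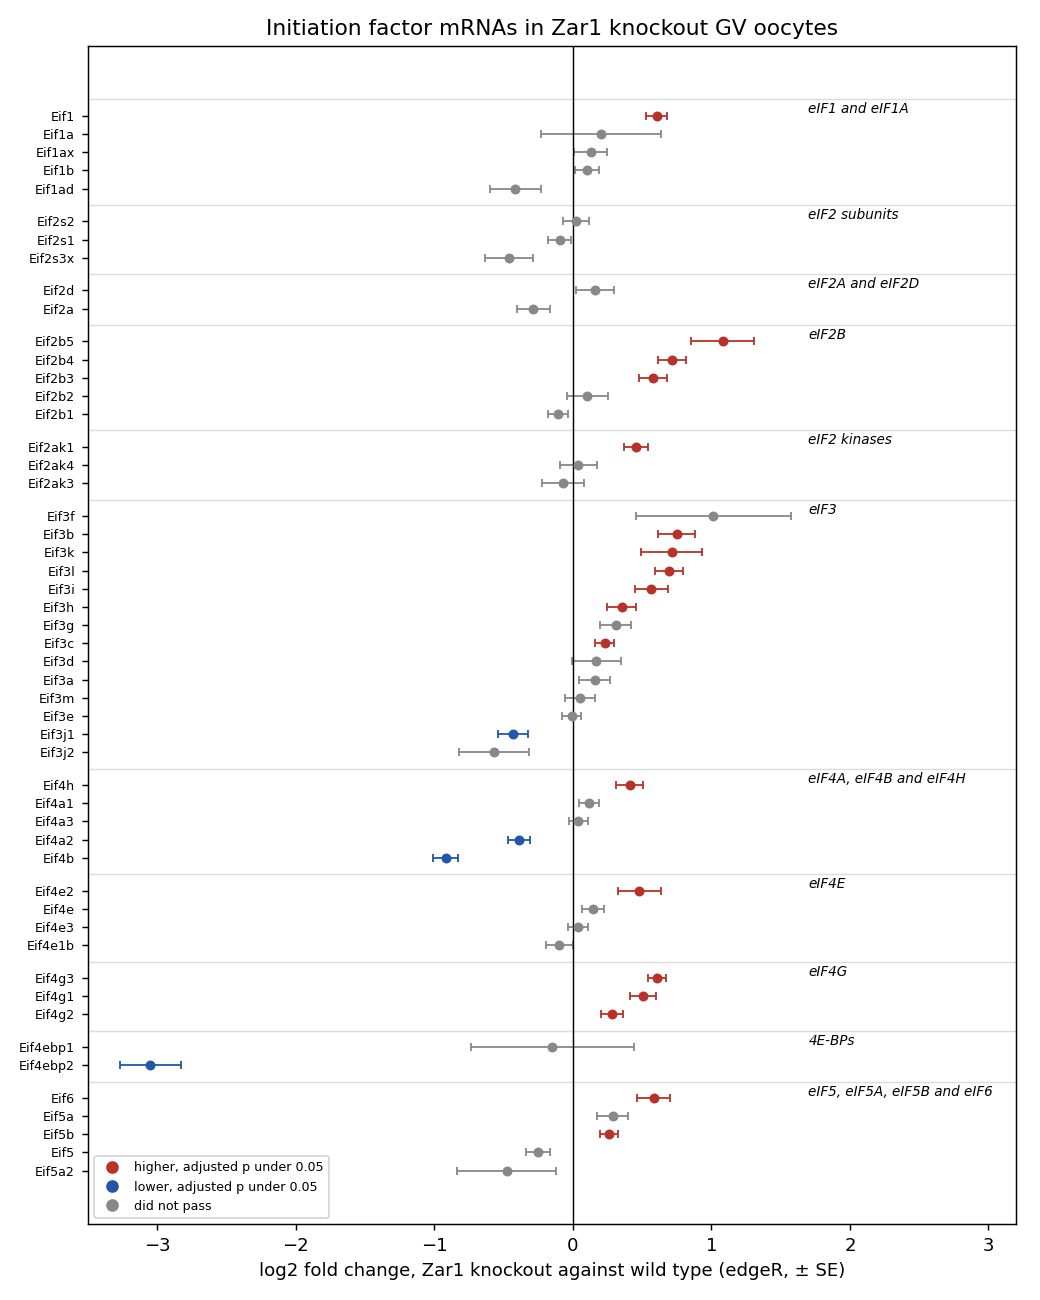
Log2 fold change of the 51 tested initiation factor genes, knockout against wild type (points, with standard errors from edgeR as bars), by functional group. Red points are the 18 genes that were higher and blue points the 4 that were lower at an adjusted p of 0.05; Eif4ebp2 at -3.05 lies far below all others.

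The 54 members together took 0.857%, 0.843% and 0.863% of the gene counts in wild-type replicates 1, 2 and 3. In knockout replicates 1, 2 and 3 they took 0.976%, 1.01% and 0.851%. The first and second knockout libraries lay above all wild-type libraries, while the third lay within their range. Without knockout replicate 3 there were 22 members higher and 4 lower, where 14.8% of all genes tested were higher and 18.4% lower. Without any 1 of the wild-type libraries there were 13 members higher and 4 lower, where 8.96% to 9.65% of all genes tested were higher and 13.3% to 14.3% lower.

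Of the 3 genes for 4E-BPs 1 fell, 1 did not pass the test and 1 had no counts, where 18.5% of all genes tested were lower. Eif4ebp2 (ENSMUSG00000020091.16), which encodes the form of 4E-BP best known from neurons, was present at 16.7, 20.6 and 19.4 CPM in wild-type replicates 1, 2 and 3 and at 1.63, 2.36 and 2.85 CPM in knockout replicates 1, 2 and 3. Each knockout library lay far below every wild-type library. Its mean fell from 18.9 ± 2.01 to 2.28 ± 0.611 CPM (-3.05 ± 0.22, edgeR adjusted p = 3.61e-05), the largest change among the 51 members tested. Eif4ebp1, the 4E-BP first found as a target of insulin signalling, was at a low level, 0.919, 0.199 and 1.14 CPM in wild type and 0.630, 0.912 and 0.492 CPM in knockout. These values overlapped, and no change was detectable at this depth (-0.15 ± 0.59, edgeR adjusted p = 0.874). Eif4ebp3 had no count in any of the 6 libraries. Per kilobase of transcript Eif4ebp2 was 8.68-fold above Eif4ebp1 in wild type and 1.16-fold above it in knockout.

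The end of the Eif4ebp2 transcript is shown because its mRNA had the largest fall, and that of Eif4b because its fall was the next largest among the members called. Both carry the standard polyadenylation hexamer close to the end of the longest coding transcript in GENCODE M21 (build GRCm38). The sequences lie at chr10:61428494-61428523 (minus strand) and chr15:102097138-102097167 (plus strand), in the 3' UTR, and run 5′ to 3′ with the hexamer in capitals.
Eif4ebp2: ctgttacagttaAATAAAgaccttgaatac
Eif4b: tgtttttctccaAATAAAtccagtctttaa
After the last base of the hexamer 15 and 18 bases remained to the end of the transcript.

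Of the 4 genes for cap-binding proteins of the eIF4E family only Eif4e2 passed the test (25.0%, against 33.4% of all genes tested). Eif4e, the general cap-binding protein, stood at 233, 248 and 239 CPM in wild type and 253, 254 and 291 CPM in knockout. All knockout libraries were above all wild-type libraries, by a small margin that did not pass (0.15 ± 0.08, edgeR adjusted p = 0.182). Eif4e1b, the eIF4E form found mainly in oocytes, was at 214, 199 and 217 CPM in wild type and 215, 205 and 169 CPM in knockout, with overlapping groups (-0.10 ± 0.10, edgeR adjusted p = 0.483). Eif4e3, a divergent cap-binding form, was at 291, 281 and 312 CPM and 311, 313 and 284 CPM, also overlapping (0.04 ± 0.07, edgeR adjusted p = 0.739). Per kilobase of transcript the order in wild type was Eif4e3 (117 ± 6.17), Eif4e1b (98.6 ± 4.43), Eif4e (48.1 ± 1.55) and Eif4e2 (7.30 ± 1.00) CPM per kb, with gaps larger than their SDs between all neighbours, and the same order held in knockout. Eif4e2, which encodes 4EHP, a cap-binding protein that does not join eIF4G and is known for repression, rose from 28.6, 25.8 and 21.7 CPM to 37.9, 39.8 and 28.6 CPM (0.48 ± 0.16, edgeR adjusted p = 0.0408). Knockout replicate 3 was barely above wild-type replicate 1, and the call was lost on leaving out any library other than knockout replicate 3 (edgeR adjusted p from 0.0517 to 0.153) or on scaling by library sizes alone (0.061).

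All 3 eIF4G genes rose, where 14.9% of all genes tested were higher. Eif4g3, a scaffold that binds eIF4E, eIF4A and eIF3, went from 162, 159 and 155 CPM to 239, 247 and 239 CPM. Wild-type libraries differed by a few CPM, and every knockout library lay well above them (0.61 ± 0.07, edgeR adjusted p = 0.000226). Eif4g1, the other scaffold with an eIF4E site, was at 39.1, 45.5 and 44.7 CPM in wild type and 63.2, 57.3 and 63.3 CPM in knockout, again without overlap (0.51 ± 0.10, edgeR adjusted p = 0.00386). Eif4g2, which encodes the shorter DAP5 that lacks an eIF4E site, was at 399.7, 362 and 397 CPM and 488, 495 and 431 CPM (0.29 ± 0.08, edgeR adjusted p = 0.0221). Eif4g2 kept the same direction but missed the threshold on leaving out any library other than knockout replicate 3 (edgeR adjusted p from 0.0524 to 0.0943). The eIF4G genes together took 0.0618%, 0.0565% and 0.0603% of counts in wild type and 0.0787%, 0.0785% and 0.0719% in knockout, with all knockout libraries above.

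Of the 5 genes for the helicase and its cofactors 2 fell and 1 rose. Among all genes tested 18.5% were lower and 14.9% higher. Eif4b (ENSMUSG00000058655.10), an RNA-binding cofactor that stimulates eIF4A, was at 392, 439 and 400.5 CPM in wild type and 202, 207 and 243 CPM in knockout. The knockout values sat close to each other and far under the lowest wild-type value (-0.92 ± 0.09, edgeR adjusted p = 0.000139). Eif4a2, one of a pair of genes for the eIF4A helicase, was at 114, 129 and 130.4 CPM and 93.1, 94.5 and 97.1 CPM, without overlap (-0.39 ± 0.08, edgeR adjusted p = 0.00613). Eif4h, a smaller cofactor related to eIF4B, rose from 115, 114 and 122 CPM to 174, 155 and 137 CPM (0.41 ± 0.10, edgeR adjusted p = 0.0104). Eif4a1, the main gene for the helicase, was at 195 ± 6.54 and 211 ± 12.2 CPM, and Eif4a3, a helicase of the exon junction complex, at 291 ± 1.27 and 299.8 ± 18.0 CPM (mean ± SD, n = 3 each), and neither passed (edgeR adjusted p = 0.244 and 0.693). The ratio of Eif4a2 to Eif4a1 counts, which does not depend on scaling between libraries, was 0.599, 0.671 and 0.645 in wild type and 0.434, 0.478 and 0.438 in knockout. With offsets for GC content and transcript length Eif4a2 no longer passed (-0.14, edgeR adjusted p = 0.222).

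**Figure D2:**
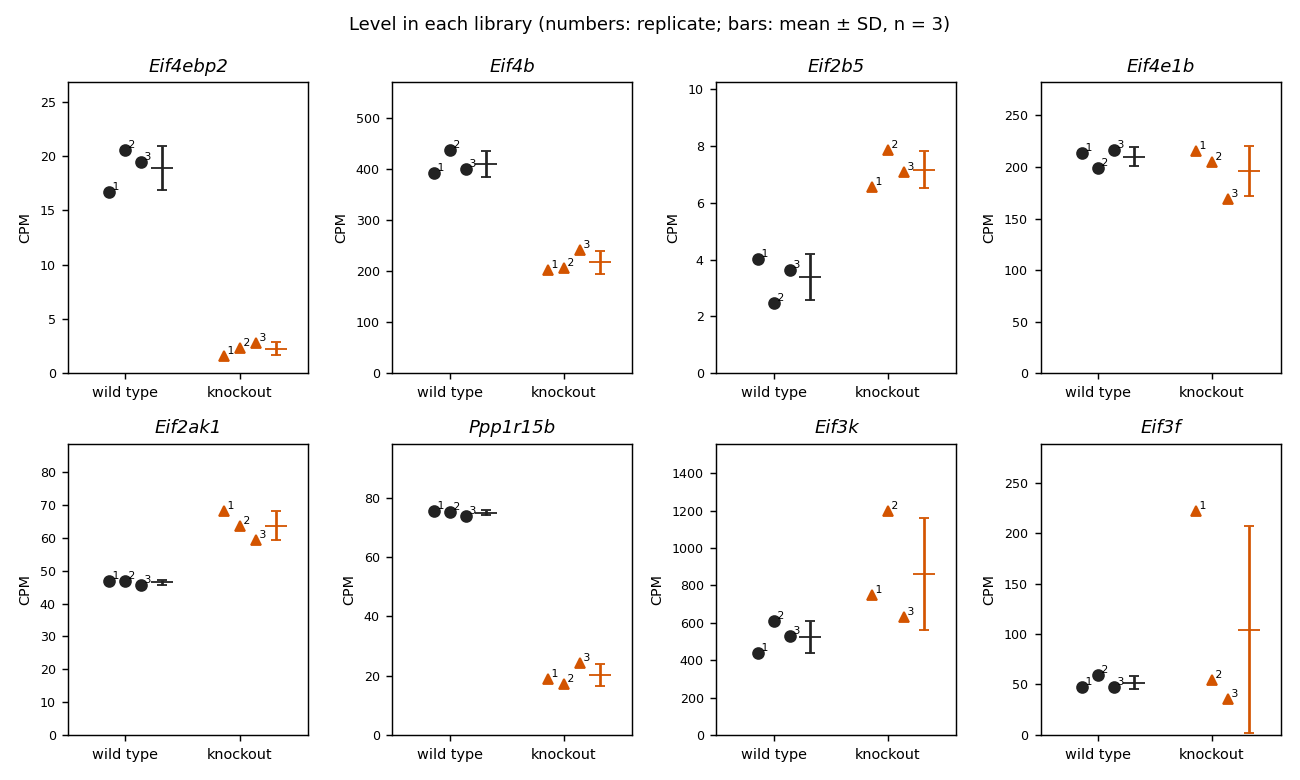
Level in each library (CPM, axes from 0) of 8 genes in wild type (circles) and knockout (triangles), with replicate numbers, and the mean ± SD (n = 3) as bars. Eif4ebp2, Eif4b and Ppp1r15b were lower in every knockout library, Eif2b5, Eif2ak1 and Eif3k higher, Eif4e1b overlapped, and Eif3f stood out in knockout replicate 1 alone.

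Genes that regulate the cap-binding step were counted from a list of 18. There 6 were higher (33.3%, against 14.9% of all genes tested) and 2 lower (11.1%, against 18.5%). Mknk2, a kinase that phosphorylates eIF4E on eIF4G, rose from 40.1 ± 0.861 to 88.4 ± 10.5 CPM (1.14 ± 0.10, edgeR adjusted p = 9.58e-05), and Larp1, which binds mRNAs of the translation machinery downstream of mTOR, from 10.5 ± 0.677 to 20.9 ± 0.675 CPM (1.00 ± 0.12, 0.000458). Mlst8, a subunit of the mTOR complexes whose activity releases 4E-BPs from eIF4E, fell from 5.30 ± 1.14 to 1.503 ± 0.202 CPM (-1.81 ± 0.26, edgeR adjusted p = 0.000889). Rps6kb1, the S6 kinase that phosphorylates eIF4B, fell from 92.1 ± 5.10 to 65.8 ± 0.677 CPM (-0.49 ± 0.08, edgeR adjusted p = 0.00177), a call lost with offsets for GC content and length (-0.15, edgeR adjusted p = 0.178). The remaining 3 of these 4 kept their calls whichever library was left out and with those offsets. The other genes called higher were less stable in part. With each of the 6 libraries left out in turn, Eif4enif1 passed in 0 fits, Zfp598 in 3, Tbc1d7 in 5 and Akt1s1 in 6. With those offsets Akt1s1 (0.12, edgeR adjusted p = 0.447) and Zfp598 (0.06, 0.641) did not pass, while Eif4enif1 and Tbc1d7 did.

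The subunits of eIF2 did not pass the test, and 3 of the 5 genes of its exchange factor eIF2B rose. Among all genes tested 33.4% were called and 14.9% were higher, and a difference between eIF2 and eIF2B was not tested. Eif2s1, the alpha subunit that the kinases phosphorylate, was at 79.8 ± 4.61 CPM in wild type and 74.7 ± 3.84 CPM in knockout (-0.09 ± 0.08, edgeR adjusted p = 0.425). Eif2s2, the beta subunit, was at 397 ± 13.2 and 403 ± 51.9 CPM (0.02 ± 0.10, edgeR adjusted p = 0.879), and both genes overlapped between the groups. Eif2s3x, the X-linked gene for the GTP-binding gamma subunit, was at 6.98, 7.12 and 6.96 CPM in wild type and 4.61, 5.77 and 4.92 CPM in knockout, below in every library but short of the threshold (-0.46 ± 0.17, edgeR adjusted p = 0.0696). Its Y-linked copy Eif2s3y had 1 count in all. Per kilobase the 3 subunits were far from equal, from 156 CPM per kb for Eif2s2 to 1.93 for Eif2s3x in wild type.

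Eif2b5 (ENSMUSG00000003235.14), the catalytic epsilon subunit of eIF2B, was at 4.02, 2.47 and 3.64 CPM in wild type and 6.56, 7.86 and 7.06 CPM in knockout. Every knockout library was above the highest wild-type library (1.08 ± 0.23, edgeR adjusted p = 0.00638). Eif2b4, the delta subunit of the regulatory core, went from 258, 239.8 and 262 CPM to 474, 410.2 and 362 CPM (0.71 ± 0.10, edgeR adjusted p = 0.00087). Eif2b3, the gamma subunit that pairs with epsilon, went from 64.8, 62.9 and 59.5 CPM to 91.6, 105 and 82.9 CPM (0.58 ± 0.10, edgeR adjusted p = 0.00273). In both genes the knockout libraries varied more than the wild-type libraries and stayed clear of them. The other two core subunits did not pass, Eif2b1 at 1307 ± 53.8 and 1214 ± 97.6 CPM (edgeR adjusted p = 0.315) and Eif2b2 at 28.8 ± 1.94 and 31.0 ± 6.18 CPM (0.627). Eif2b1, the alpha subunit, had the highest level of all members per kilobase in wild type (649 ± 26.7 CPM per kb), 491-fold above Eif2b5 (1.32 ± 0.317 CPM per kb), and this gap was 215-fold in knockout.

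**Figure D3:**
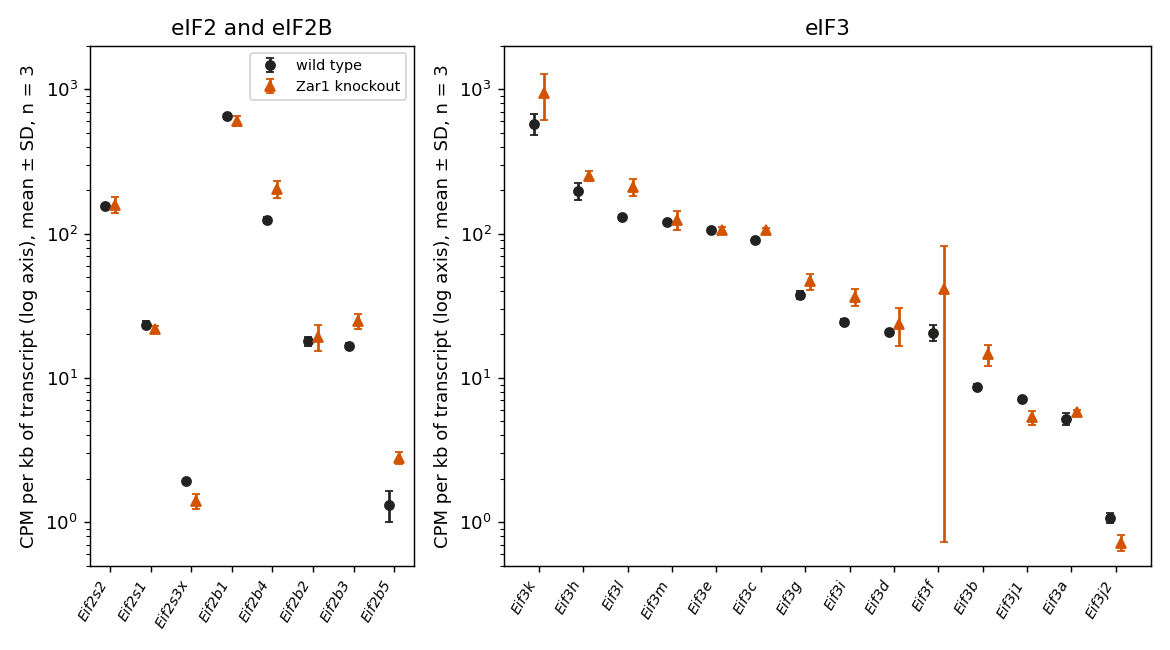
Level per kilobase of transcript (CPM per kb, log axis; mean ± SD, n = 3) of the subunits of eIF2 and eIF2B (left) and eIF3 (right) in wild type (circles) and knockout (triangles). Subunits of 1 complex ranged from 1.32 (Eif2b5) to 649 (Eif2b1) CPM per kb in eIF2B and from 1.07 (Eif3j2) to 577 (Eif3k) in eIF3 in wild type. The Eif3j2 level is uncertain, as its whole transcript is shared with Eif3j1.

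Of the 4 eIF2 kinases 1 rose (33.3% of the 3 tested, against 14.9% of all genes tested). Eif2ak1 (ENSMUSG00000029613.16), the heme-regulated kinase HRI, was at 46.8, 46.8 and 45.7 CPM in wild type and 68.2, 63.5 and 59.5 CPM in knockout. The wild-type libraries were almost equal, and each knockout library lay above them (0.46 ± 0.09, edgeR adjusted p = 0.00397). Eif2ak4, which encodes GCN2, the sensor of uncharged tRNA, was at 109.6, 113 and 115 CPM and 133, 124 and 90.4 CPM, with knockout replicate 3 below and the others above the wild-type range (0.04 ± 0.13, edgeR adjusted p = 0.841). Eif2ak3, which encodes the endoplasmic reticulum stress kinase PERK, was at 9.76, 9.36 and 8.97 CPM and 8.59, 8.08 and 10.1 CPM, with overlap (-0.07 ± 0.15, edgeR adjusted p = 0.765). Eif2ak2, the double-stranded RNA sensor PKR, had 13, 2 and 3 counts in wild type and 0, 5 and 1 in knockout, too few to test. Per kilobase the order in wild type was Eif2ak4 (21.2 ± 0.495), Eif2ak1 (10.7 ± 0.147) and Eif2ak3 (2.07 ± 0.0882) CPM per kb, and it was the same in knockout, with each gap above the SDs.

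The genes that reset or modulate eIF2 phosphorylation were counted from a list of 11, of which 1 was higher (9.09%, against 14.9% of all genes tested) and 2 lower (18.2%, against 18.5%). Ppp1r15b, the constitutive targeting subunit that brings protein phosphatase 1 to eIF2, was at 75.5, 75.2 and 73.9 CPM in wild type and 18.7, 17.3 and 24.4 CPM in knockout. The groups were far apart, with almost no spread in wild type (-1.90 ± 0.13, edgeR adjusted p = 3.15e-05). Ppp1r15a, its stress-induced counterpart GADD34, rose from 31.0 ± 3.48 to 50.05 ± 1.81 CPM (0.69 ± 0.11, edgeR adjusted p = 0.00135). Dnajc3, an endoplasmic reticulum co-chaperone described as an inhibitor of eIF2 kinases, fell from 328 ± 36.2 to 199 ± 17.6 CPM (-0.72 ± 0.10, edgeR adjusted p = 0.000832). These 3 calls held whichever library was left out.

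In eIF3, the largest of the factors, 6 of 14 genes rose (42.9%, against 14.9% of all genes tested) and 1 fell (7.14%, against 18.5%). The median log2 fold change was 0.27. Among the core that holds the complex together, Eif3b (ENSMUSG00000056076.14), the scaffold of the module with Eif3g and Eif3i, was at 25.7, 24.3 and 26.5 CPM in wild type and 49.5, 35.3 and 43.9 CPM in knockout, with no overlap (0.75 ± 0.13, edgeR adjusted p = 0.00289). Its partner Eif3i was at 28.4, 26.0 and 28.3 CPM and 44.5, 43.3 and 34.8 CPM (0.57 ± 0.12, edgeR adjusted p = 0.00649). Eif3g, the remaining gene of that module, was above in every knockout library (41.5 ± 2.56 against 51.4 ± 6.57 CPM) and missed the threshold (edgeR adjusted p = 0.0633), which it passed without knockout replicate 3 (0.0149). It also passed in edgeR with RLE (0.0487) or upper-quartile factors (0.0346), and in DESeq2 (adjusted p = 0.028). Eif3c, a core subunit that contacts eIF1 and eIF5, was at 313, 296 and 306 CPM and 364, 367 and 341 CPM. Its groups were separate but close (0.23 ± 0.07, edgeR adjusted p = 0.0268), and it missed the threshold on leaving out any library other than knockout replicate 3 (0.0564 to 0.107). Eif3a, the largest subunit, was at 26.7 ± 2.66 and 29.8 ± 1.01 CPM (edgeR adjusted p = 0.315).

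Of the outer subunits, Eif3l and Eif3k, which bind each other at the edge of the complex, were both higher. Eif3l was at 263, 248 and 245 CPM in wild type and 452, 425 and 346 CPM in knockout, without overlap (0.69 ± 0.10, edgeR adjusted p = 0.00102). Eif3k was at 437, 609 and 528 CPM and 749, 1199 and 633 CPM, with a wide spread in both groups and knockout replicate 2 highest (0.71 ± 0.22, edgeR adjusted p = 0.033). It missed the threshold without knockout replicate 2 (0.41, edgeR adjusted p = 0.0577), without wild-type replicate 1 (0.59, 0.12) and without wild-type replicate 3 (0.71, 0.0914). Eif3h, which has been linked to reinitiation, was at 266, 218 and 283 CPM and 335, 348 and 296 CPM (0.35 ± 0.11, edgeR adjusted p = 0.0322). The second wild-type library was the lowest, and the call was lost without knockout replicate 1 (0.0751), knockout replicate 2 (0.0821), wild-type replicate 1 (0.07) or wild-type replicate 2 (0.106). With library sizes alone Eif3c (edgeR adjusted p = 0.0583) and Eif3h (0.0579) also missed the threshold.

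Eif3j1, the loosely bound subunit at the mRNA entry channel, was the eIF3 gene that fell, from 39.4, 39.2 and 38.0 CPM to 28.9, 31.9 and 25.6 CPM. Every knockout library was below every wild-type library (-0.43 ± 0.11, edgeR adjusted p = 0.0147), and with offsets for GC content and length the call was lost (-0.14, edgeR adjusted p = 0.369). Its second gene copy Eif3j2 was below in every library, at 2.54 ± 0.192 and 1.72 ± 0.224 CPM, without passing (-0.57 ± 0.25, edgeR adjusted p = 0.117). The whole Eif3j2 transcript is shared with Eif3j1, so its level is uncertain and may not be a separate observation. Eif3d, a peripheral subunit that can bind caps, Eif3e and Eif3m were at 39.7 ± 1.05, 161 ± 3.29 and 153 ± 3.75 CPM in wild type and at 44.6 ± 12.9, 159.9 ± 7.90 and 159 ± 23.7 CPM in knockout, with overlap and adjusted p between 0.505 and 0.947. The eIF3 genes together took 0.190%, 0.193% and 0.195% of counts in wild type and 0.266%, 0.295% and 0.213% in knockout. Without Eif3f and Eif3k the shares were 0.140%, 0.126% and 0.137% against 0.169%, 0.172% and 0.148%, with all knockout libraries above in both sums.

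Eif3f, a subunit with a deubiquitinase-like domain, was at 47.9, 59.3 and 47.6 CPM in wild type and 222, 54.8 and 35.9 CPM in knockout. Knockout replicate 1 alone was high, 3.75-fold above the next library and 4.52-fold above the mean of the others, while the remaining knockout libraries lay within or below the wild-type range. The gene did not pass (1.01 ± 0.56, edgeR adjusted p = 0.198). Without knockout replicate 1 its log2 fold change was -0.18 (edgeR adjusted p = 0.525), and without knockout replicate 3 it was 1.42 (0.0457). With no filter on low counts Eif3f passed (0.99, edgeR adjusted p = 0.000244), with knockout replicate 1 still in the fit. Of 6072 genes with a mean of at least 20 CPM, 2, Eif3f included, had knockout replicate 1 as far above the next library, 4 had knockout replicate 3 so, and none had any other library so.

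Of the 5 genes of the eIF1 and eIF1A group Eif1 alone passed the test, where 33.4% of all genes tested were called. Eif1 (ENSMUSG00000035530.14), which guards the fidelity of start codon selection, was at 252, 256 and 253 CPM in wild type and 369.5, 421 and 368 CPM in knockout. The wild-type values lay within a few CPM of each other and all knockout values were well above (0.61 ± 0.07, edgeR adjusted p = 0.000439). Eif1b, its close paralog, was at 313 ± 6.46 and 336 ± 35.3 CPM and did not pass (edgeR adjusted p = 0.398). The ratio of Eif1b to Eif1 counts was 1.27, 1.20 and 1.24 in wild type and 0.921, 0.876 and 0.812 in knockout, lower in every knockout library. Eif1ax and Eif1a, which both encode eIF1A, were at 122 ± 2.11 and 3.98 ± 1.05 CPM in wild type and 133 ± 23.0 and 4.59 ± 3.09 CPM in knockout, with overlap (edgeR adjusted p = 0.437 and 0.756). Eif1ax passed without knockout replicate 3 (0.25, edgeR adjusted p = 0.046). Eif1ad, which carries an eIF1A domain, was below in every knockout library (13.5 ± 1.35 against 10.1 ± 2.15 CPM) and did not pass (edgeR adjusted p = 0.116).

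At the joining of the large ribosomal subunit, Eif5b and Eif6 rose. Eif5b, the GTPase that joins the subunits, was at 299, 287 and 295 CPM in wild type and 342, 367 and 349 CPM in knockout, a small rise without overlap (0.26 ± 0.06, edgeR adjusted p = 0.0133). Leaving out wild-type replicate 2 (0.0603) or wild-type replicate 3 (0.061) ended the call. Eif6, which keeps the large subunit from joining early, was at 75.6, 75.3 and 69.6 CPM and 130.4, 96.3 and 104 CPM (0.58 ± 0.12, edgeR adjusted p = 0.00515), with knockout replicate 1 highest, and its call was lost with offsets for GC content and length (0.32, 0.0628). Eif5, which makes eIF2 hydrolyse its GTP, was below in every knockout library (343 ± 18.2 against 288 ± 28.5 CPM, -0.25 ± 0.09, edgeR adjusted p = 0.0546). It passed in edgeR with library sizes alone (0.0376), no filter (0.0249) or 10 counts in all libraries (0.0448). DESeq2 (0.0471) and limma-voom (0.0488) also gave adjusted p under the threshold. With offsets for GC content and length Eif5 was at 0.0031 (edgeR adjusted p = 0.985). Eif5a, an elongation factor that carries the modified residue hypusine, was above in every knockout library (122 ± 9.64 against 149 ± 21.6 CPM, 0.29 ± 0.11, edgeR adjusted p = 0.0768). In edgeR Eif5a passed without knockout replicate 2 (0.38, 0.0432), with no filter (0.046) and with upper-quartile factors (0.0459). DESeq2 also called Eif5a (adjusted p = 0.047). Its paralog Eif5a2 was at a low level and did not pass (1.13 ± 0.330 against 0.816 ± 0.1295 CPM).

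Both enzymes that make hypusine on eIF5A were higher in the knockout, where 14.9% of all genes tested were higher. Dhps went from 3.83 ± 0.233 to 7.49 ± 1.11 CPM (0.97 ± 0.19, edgeR adjusted p = 0.00463) and Dohh from 4.07 ± 0.175 to 6.63 ± 1.72 CPM (0.70 ± 0.23, 0.0411). The rise of Dhps held whichever library was left out, while Dohh passed only without knockout replicate 1 and otherwise had adjusted p between 0.0754 and 0.123. With offsets for GC content and length Dohh no longer passed (0.23, edgeR adjusted p = 0.468). Of 8 genes for scanning, reinitiation and recycling 1 was higher and 1 lower (12.5% each, against 14.9% and 18.5% of all genes tested). The helicase gene Ddx3x fell from 1758 ± 69.1 to 1394 ± 63.1 CPM (-0.33 ± 0.06, edgeR adjusted p = 0.00441; with offsets for GC content and length -0.04, 0.638). Mcts2, a partner of the reinitiation factor DENR, rose from 1.84 ± 0.501 to 3.51 ± 0.986 CPM (0.93 ± 0.31, edgeR adjusted p = 0.0477), which passed only without knockout replicate 1 when a library was left out and otherwise reached up to 0.151. Eif2d, a related reinitiation factor, was at 157 ± 5.65 and 175 ± 35.8 CPM (0.404) and passed without knockout replicate 3 (0.32, edgeR adjusted p = 0.0108). Eif2a, which can carry the initiator tRNA without GTP, was below in every knockout library (23.0 ± 1.78 against 18.9 ± 1.52 CPM; edgeR adjusted p = 0.107).

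Of the initiation factors of the nuclear cap and of mitochondria Ncbp2 alone passed, where 33.4% of all genes tested were called. Among 4 genes of nuclear cap binding 1 was lower, Ncbp2 (60.1 ± 4.66 against 49.1 ± 3.53 CPM; -0.29 ± 0.10, edgeR adjusted p = 0.0451), which passed only without knockout replicate 2 when a library was left out and otherwise had adjusted p between 0.0784 and 0.161, and which did not pass with offsets for GC content and length (-0.16, edgeR adjusted p = 0.233). Its neighbour in the list by p, Ncbp3, was at 65.1 ± 7.62 and 58.7 ± 1.75 CPM (edgeR adjusted p = 0.284). The mitochondrial factors Mtif2 (6.64 ± 1.16 against 4.88 ± 0.435 CPM, edgeR adjusted p = 0.116) and Mtif3 (14.8 ± 1.43 against 16.7 ± 1.04 CPM, 0.362) did not pass.

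**Figure D4:**
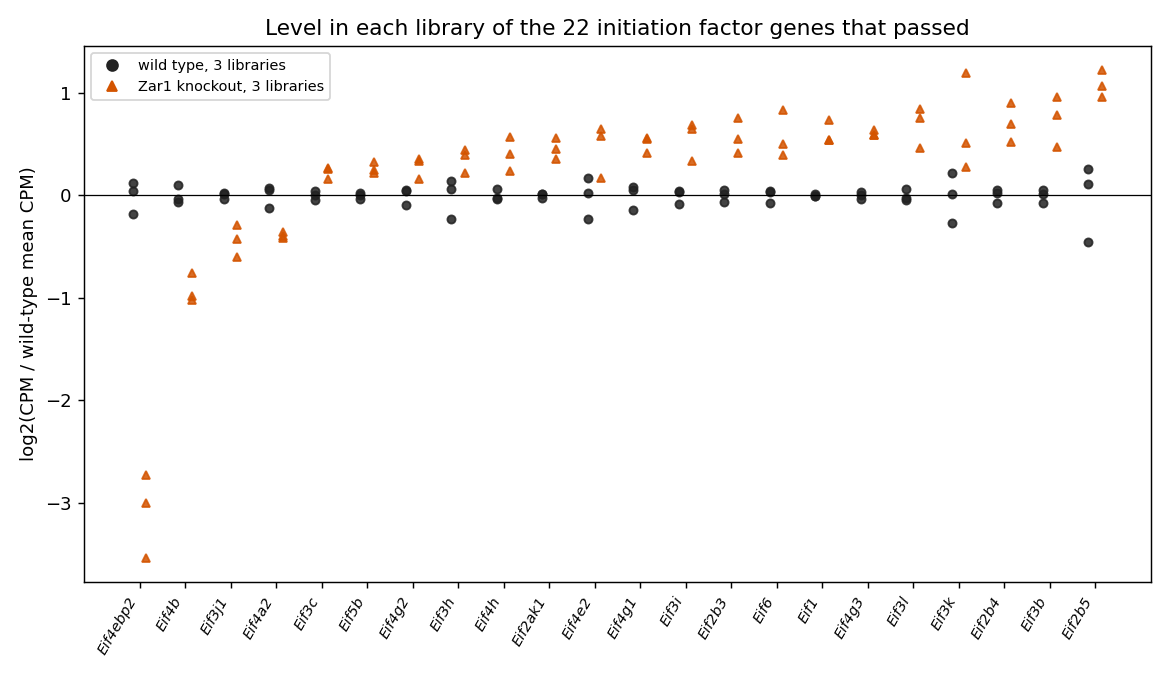
Level of the 22 initiation factor genes called in each library, as log2 of CPM over the wild-type mean (circles, 3 wild-type libraries; triangles, 3 knockout libraries), ordered by fold change. No gene had overlapping groups, and the gap was narrowest for Eif4e2.

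Setting the groups side by side, 3 of 5 eIF2B genes, 3 of 3 eIF4G genes and 6 of 14 eIF3 genes were higher, against 0 of 3 tested genes of eIF2 itself, 1 of 3 tested kinases, 1 of 4 eIF4E genes and 0 of 2 tested 4E-BPs. Of all genes tested 14.9% were higher. The groups are small and no count, high or low, was tested against that share, so none is read as a difference from it. Median log2 fold changes were 0.58 for eIF2B, 0.51 for eIF4G, 0.27 for eIF3, 0.13 for all 12 eIF4 genes (A, B, H, E and G), 0.04 for the kinases and -0.09 for the eIF2 subunits. Differences between these groups were not tested. The genes called higher had a median GC content of 51.6% in the longest coding transcript, those called lower 46.4% and those not called 48.1%. With each library's trend over GC content and transcript length entered as offsets, 18 members were higher and 2 lower. The shares of all genes called under these offsets are not given here, so these counts are not set against all genes. Under these offsets Eif1ax (0.45, edgeR adjusted p = 0.0212), Eif3a (0.40, 0.0266) and Eif4e (0.46, 0.00206) passed, and Eif3h, Eif3k, Eif6, Eif4a2 and Eif3j1 no longer did. The part of GC content in the rises was not tested further.

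GV oocytes hold many mRNAs with short tails that are lengthened during maturation through the cytoplasmic polyadenylation element. The letters TTTTAT and TTTTAAT were searched for on the transcript strand in the last 100 bases of the longest coding transcript. They were found in 19.1% of 12941 protein-coding genes tested, in 5 of the 51 members tested (Eif1a, Eif1ax, Eif3j2, Eif3m and Eif4e3) and in none of the 22 members called. Of all genes called 21.1% held the letters, and of those not called 17.9%. The stretch around the element is shown for 3 of the 5, at chrX:159389887-159389916 (plus strand), chr2:104999701-104999730 (minus strand) and chr6:99625215-99625244 (minus strand) of GRCm38 with the matching letters in capitals, as examples of members with these letters. None of the 5 passed the test.
Eif1ax: attcagtggatgTTTTATgctgcacaaata
Eif3m: agatacctgaatTTTTATgaaaatgatttt
Eif4e3: attttgagaaaaTTTTATttttgaacttta
After the last base of the element 24, 57 and 92 bases remained to the end of the transcript. A match is a description of the annotated end, and the transcript ends used by these oocytes were not determined.

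Some counts are uncertain because of neighbours and copies. In the M21 annotation 14 members share exon bases with another protein-coding or antisense gene, 6 of them called, and no source used here gives the strand setting of the counting. For Eif2ak1 the opposite-strand partner Aimp2 was also higher (8.59 ± 1.53 against 13.5 ± 1.26 CPM, edgeR adjusted p = 0.0184), and for Eif2b4 the partner Snx17 was also higher (47.4 ± 9.29 against 68.7 ± 5.40 CPM, 0.0168). Spg11, Rfc4 and Rev1, which overlap Eif3j1, Eif4a2 and Eif5b, did not pass. At least 200 bases at 95% identity or more were shared with another gene by 23 members, 7 of them called. The shared stretch was at least 50% of the transcript in 8 members, and 2 of these were called, Eif3h and Eif3j1. For Eif3j2, not called, it was 100%.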

How the data were processed

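Each library was made from 10 oocytes with a single-cell QIAseq FX kit, per the labels' protocols. The authors deposited raw counts per gene for each library. HTSeq 0.13.5, STAR 2.7.8a, cutadapt 2.8 and bcl2fastq 2.20.0.422 and the build mm39 are named in the submitters' processing notes; annotation release and strand setting: not given in the sources used here. Summary rows of the counting (13.9 to 15.0% of all reads with several alignments, 4.21 to 4.42% in several genes, 4.84 to 5.70% in none) were kept out of totals and tests. Genotypes and replicate numbers came from the labels.

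Symbols came from a supplied gene name table (52093 of 53700 rows). Biotypes, transcript lengths, GC content and transcript ends came from GENCODE M21, built on GRCm38 and not mm39, matched by gene identifier (52147 rows), so overlaps may differ from those of the counting. Differential expression was fitted over all 16473 genes that passed filterByExpr by edgeR 4.0.16 under R 4.3.3 (main scaling with TMM factors; quasi-likelihood fit and F test on genotype alone; two-sided; p adjusted by Benjamini-Hochberg). The SE of a log2 fold change is its size over the square root of the F statistic. CPM use TMM-scaled library sizes, and a gene with 10 counts is below 1 CPM in these libraries. The common BCV (biological coefficient of variation) was 0.212. The steps were tested on simulated data. Pairs of libraries of the same genotype differed beyond counting noise (chi-square over degrees of freedom from 14.2 to 45.4), so none was a duplicate.

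Members and lists were chosen with earlier results of these data known. The text names every member, with the value in every library for called genes, eIF2 kinases, 4E-BPs and eIF4E forms. From each related list it gives up to 4 called genes with the smallest adjusted p. Where fewer than 2 passed it gives the 2 with the smallest p. The other called genes of the cap-binding list are named for how their calls held. Results were recomputed with RLE or upper-quartile factors or none, with no filter and a filter of 10 counts in all 6 libraries, DESeq2 1.42.0, limma-voom (limma 3.58.1), the replicate number as a block, offsets for GC content and length (lowess, 99.7% of genes tested had both), a threshold of 0.01, the glmTreat test against 1.5-fold, and each library left out in turn. Tables were made with Python 3.11.15 and pandas 2.3.3.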

Additional observations from a re-analysis of the deposited data

How the results depend on the processing

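Of the 22 members called, 12 kept their call in all 17 alternatives other than the test against a 1.5-fold change, and of these only Eif4b and Eif4ebp2 kept it in that test too. The calls of Zar1 held throughout. Members higher numbered 11 at an adjusted p of 0.01 and 0 in the edgeR test against a 1.5-fold change (which called 2.53% of all genes higher), and 13 to 22 with each library left out in turn. Members lower numbered 2 with offsets for GC content and length, 2 with these and the block, 2 against a 1.5-fold change, and 4 with any library left out. Same-numbered libraries of the 2 genotypes did not deviate together (r = -0.009, -0.042 and -0.025 across genes). No library correlated best with its own number, so the replicate numbers name samples and do not pair them. The replicate block gave 16 members higher and 4 lower. Where no share of all genes called is printed for an alternative, its counts of members are not set against all genes. Such shares differ between alternatives. Group medians of the log2 fold change that moved by more than the SD between knockout libraries are given next. With GC and length offsets they were 0.45 (eIF1 and eIF1A), 0.16 (kinases), 0.16 (eIF2 subunits, reversed), 0.24 (eIF4) and 0.12 (eIF5, eIF5A, eIF5B and eIF6), and with the replicate block added 0.30, 0.14, 0.16, 0.24 and 0.11. Upper-quartile factors gave 0.20 (all members) and 0.18 (eIF4), library sizes alone 0.10 (eIF4), and no filter -0.031 (kinases, reversed) and -0.29 (eIF2 subunits). Without the filter these last medians also took in Eif2ak2 and Eif2s3y, which had too few counts for the main test, so they cover other sets of genes. Leaving out each library in turn gave -0.032 to 0.19 (kinases), 0.081 to 0.18 (eIF4) and 0.17 to 0.30 (eIF5, eIF5A, eIF5B and eIF6).

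Reversals of single members touched only members not called in either setting. With GC and length offsets (then with the block added) the values were -0.070 (-0.073) for Eif1b, -0.063 (-0.076) for Eif2b2, 0.16 (0.16) for Eif2s1, 0.17 (0.17) for Eif3e and -0.10 (-0.11) for Eif4a3, besides 0.0031 for Eif5 with the offsets and -0.0026 for Eif3d and 0.068 for Eif4ebp1 with both. Eif3e was at 0.0080 with DESeq2, 0.0079 with RLE and 0.042 with upper-quartile factors, Eif2s2 at -0.014 with library sizes alone, and Eif4ebp1 at 0.13 with limma-voom and 0.014 with the block. With each library left out in turn, values ranged from -0.50 to 0.53 for Eif1a, -0.17 to 0.0066 for Eif2ak3, -0.059 to 0.19 for Eif2ak4, -0.054 to 0.22 for Eif2b2, -0.047 to 0.12 for Eif2s2, -0.065 to 0.35 for Eif3d, -0.029 to 0.043 for Eif3e, -0.18 to 1.42 for Eif3f, -0.054 to 0.15 for Eif3m, -0.00096 to 0.079 for Eif4e3 and -0.60 to 0.26 for Eif4ebp1. The cause was not tested. Folds of low members, such as Eif4ebp1 and Eif5a2, rest on few reads.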

Other observations

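Per kilobase of transcript, the initiation factor mRNAs of wild-type GV oocytes covered a wide range. Eif2b1 (649 ± 26.7 CPM per kb), Eif3k (577 ± 95.1), Eif1b (302 ± 6.24), Eif3h (197 ± 25.8) and Eif4a3 (193 ± 0.843) had the highest levels (mean ± SD, n = 3), and the last of these was above Eif1 (192 ± 1.89) by less than the SD of Eif1. In the knockout Eif3k (947 ± 329) and Eif2b1 (603 ± 48.5) changed places at the top, with a gap of about the SD of Eif3k. At the lower end of the tested members were Eif3j2 (1.07 ± 0.0807), Eif4ebp1 (0.377 ± 0.247) and Eif5a2 (0.226 ± 0.0657). The level of Eif3j2 is uncertain, as its whole transcript is shared with Eif3j1. Eif4ebp2 ranked 44 of 54 members in wild type and 49 in knockout, and Eif4b 14 and 21.

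Paralog ratios within a library do not depend on the scaling between libraries. Counts of the oocyte form Eif4e1b over those of Eif4e were 0.918, 0.803 and 0.907 in wild type and 0.851, 0.806 and 0.580 in knockout, with overlap. Those of Eif4g3 over Eif4g1 were 4.14, 3.49 and 3.48 against 3.79, 4.31 and 3.78, also with overlap. Eif4ebp2 over Eif4ebp1 was 18.2, 104 and 17.1 in wild type and 2.59, 2.59 and 5.78 in knockout, where the high second value came from few Eif4ebp1 counts. The eIF4E transporter gene Eif4enif1, left out of the members, was at 919.8, 931 and 969 CPM in wild type and 1059.9, 1036 and 1107 CPM in knockout (log2 fold change 0.18 ± 0.06, edgeR adjusted p = 0.0467), and it missed the threshold on leaving out any 1 of the 6 libraries (0.0508 to 0.153).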
